A study of Drosophila melanogaster with 6 samples.

Results

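The tetraspanin gene family was described in tendon precursors of the Drosophila leg disc. A gene was counted as a tetraspanin when its name in the FPKM table is Tsp followed by a digit, and lbm (late bloomer) was added. This gave 35 of 17411 genes, 34 named Tsp and lbm. Tsp without a digit is Thrombospondin, a secreted matrix protein of tendon cells, and is no member. All 35 genes were also listed in the table of normalised counts, and all 35 matched the annotation by gene identifier.

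Leg discs of sr-gal4>UASGFP white pupae were dissociated at 0 h APF (after puparium formation) and sorted by FACS into 3 libraries of GFP+ cells and 3 libraries of input cells, which the labels call control. Both groups have the same genotype, stage and dissociation, and the study's methods name the reporter UAS-Lifeactin.GFP. The driver sr-gal4 is an enhancer trap in stripe (sr), a transcription factor gene required for tendon fate, and GFP marks the cells in which that insertion is active, and each library pools discs of many animals. Input cells were sorted without regard to fluorescence and therefore include GFP+ cells. They were collected before the GFP+ cells, so that sorting order and group cannot be told apart. The deposited FPKM (fragments per kilobase of transcript, scaled to the number of mapped reads) is 1 value per group with a lower and an upper confidence bound. Values of single libraries are not analysed here, and no test between libraries was made. In bulk RNA, fewer cells of a type and less RNA per cell cannot be told apart.

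Tetraspanins are small proteins that cross the membrane several times and gather other membrane proteins, among them integrins, proteases and adhesion receptors, into patches. They also mark endosomes and the vesicles that cells release. A large part of the Drosophila family lies side by side at cytological position 42E of chromosome arm 2R. The members with the best known tasks are the TspanC8 genes, whose products escort the protease Kuzbanian to the cell surface, where it cleaves Notch. Notch activity at the leg joints switches on stripe in the tendon precursors.

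A few tetraspanins were highly expressed in GFP+ cells, and most of these had nearly the same level in input cells, while 18 of the 35 genes were below 1 FPKM in both groups. The 35 genes summed to 736 FPKM in GFP+ cells and 766 FPKM in input cells. In GFP+ cells 10 members had more than 10 FPKM, the level the study used for detection, against 11 members in input cells. These are 28.6% of the members in GFP+ cells and 31.4% in input cells, beside 33.9% of all genes in GFP+ cells and 34.8% in input cells. At the lower level of 1 FPKM, 17 members reached it in at least 1 of the groups. A member was called higher or lower when its FPKM differed by more than 1.5-fold and the bounds of the groups did not overlap. By that rule 1 of the 17 members was higher in GFP+ cells (Tsp42Ej) and 1 was lower (Tsp96F). Among all 9207 genes at 1 FPKM or more, 7.98% were higher and 12.7% were lower by the same rule. With 1 member in each direction, the counts are close to those shares. The median log2 ratio of GFP+ over input FPKM was 0.01 for the 17 members and 0.03 for the 9061 genes of that set with a level above 0 in both groups.

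**Figure D1:**
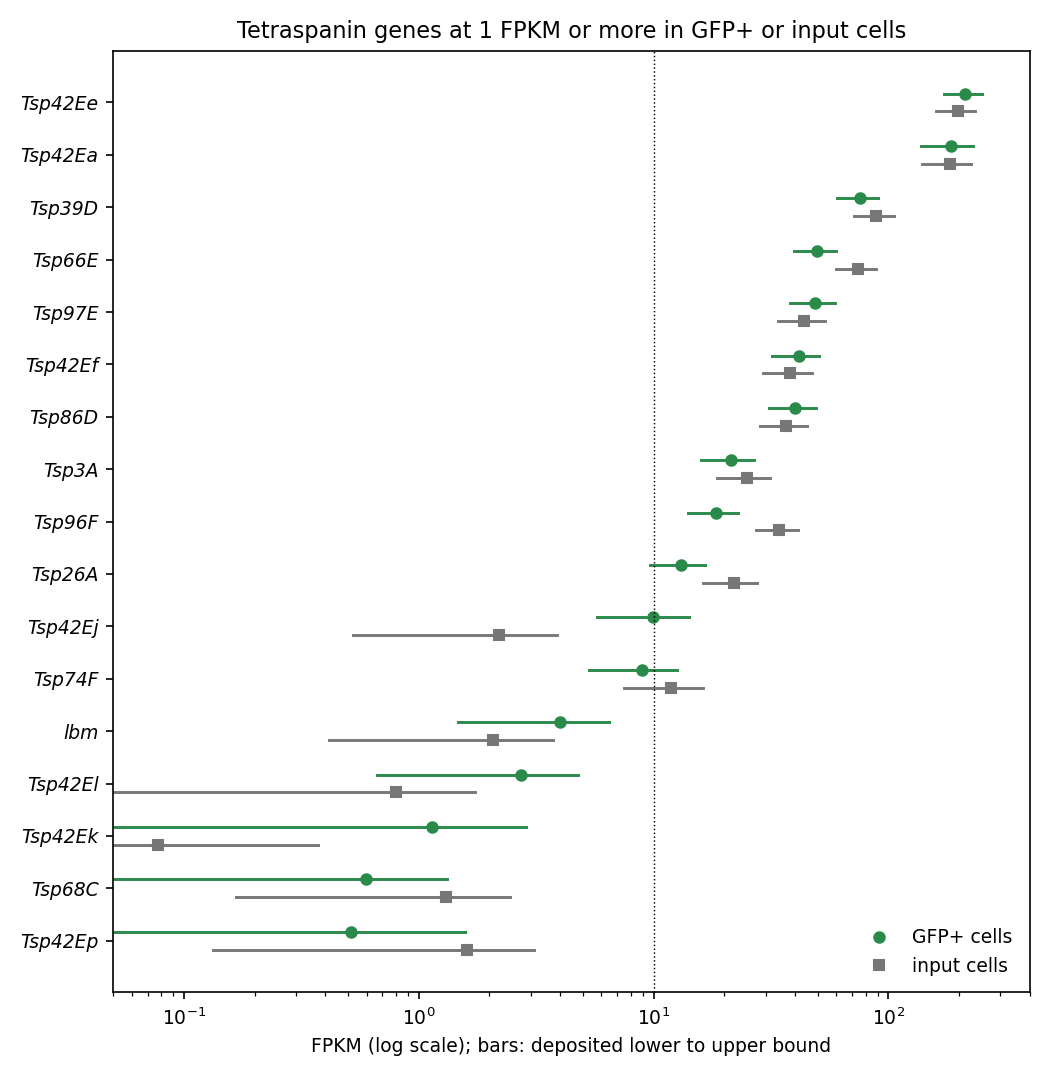
FPKM on a log scale of the 17 tetraspanin genes at 1 FPKM or more, with GFP+ cells as circles above input cells as squares and the deposited bounds as bars, which run to the left edge where the lower bound is 0. The dotted line is 10 FPKM. The bars of Tsp42Ej, Tsp96F and, narrowly, Tsp66E do not overlap.

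Tsp42Ee and Tsp42Ea, both of the 42E cluster, led the family and together made up 53.8% of its summed FPKM in GFP+ cells and 49.6% in input cells. Tsp42Ee had 212 FPKM in GFP+ cells (bounds 172 to 251) and 197 FPKM in input cells (160 to 234). Tsp42Ea had 184 FPKM in GFP+ cells (138 to 230) and 182 FPKM in input cells (139 to 226). The bounds of both genes overlap within each group, so their order is not resolved, and both stand above every other member. By level Tsp42Ee was number 491 of all genes in GFP+ cells.

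Tsp39D, the next member in both groups, had 75.4 FPKM in GFP+ cells (60.5 to 90.4) and 88.6 FPKM in input cells (71.4 to 106). Tsp66E, the fourth by level in both groups, is given with Tsp96F. Tsp97E, after it in both groups, had 48.8 FPKM in GFP+ cells (38.1 to 59.5) and 43.8 FPKM in input cells (34.0 to 53.6). Tsp42Ef had 41.5 FPKM in GFP+ cells (32.0 to 50.9) and 38.2 FPKM in input cells (29.3 to 47.2). For Tsp39D, Tsp97E and Tsp42Ef, for Tsp42Ee and Tsp42Ea, and for the TspanC8 genes Tsp86D and Tsp3A, the ratio of GFP+ over input lay between 0.85 and 1.11. These 7 of the 10 members above 10 FPKM in GFP+ cells thus differed by less than 1.2-fold, with overlapping bounds. The bounds limit what can be seen: for 826 genes above 100 FPKM in both groups their median half-width was 19.8% of the level in each group, and at that width a ratio has to pass 1.49 for the bounds to part.

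Tsp96F, on chromosome arm 3R (dm6, 25872900 to 25881427, minus strand), was the member called lower. It had 18.5 FPKM in GFP+ cells (14.0 to 22.9) and 34.2 FPKM in input cells (27.2 to 41.3), a ratio of 0.54. Taking the bounds at their extremes, the ratio lies between 0.34 and 0.84. It rests on a mean of 1850 normalised counts over the 6 libraries. Both Tsp66E and Tsp26A lay just outside the rule. Tsp66E had 49.6 FPKM in GFP+ cells (39.6 to 59.6) and 74.0 FPKM in input cells (59.7 to 88.2), a 1.49-fold lower level with bounds that part narrowly. When the ratios were centred on genes above 10 FPKM in both groups, a shift of 0.04 on the log2 scale, both genes passed the rule and 3 members were lower.

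The TspanC8 genes Tsp86D, Tsp3A and Tsp26A were all above 10 FPKM in both groups. Tsp86D, the highest of them, had 40.2 FPKM in GFP+ cells (31.2 to 49.2) and 36.7 FPKM in input cells (28.4 to 45.0). Tsp3A had 21.4 FPKM in GFP+ cells (15.9 to 26.8) and 25.0 FPKM in input cells (18.7 to 31.3). Neither was apart between the groups. Tsp26A had 13.1 FPKM in GFP+ cells (9.67 to 16.6) and 21.9 FPKM in input cells (16.3 to 27.6), a 1.67-fold lower level with bounds that still overlap at their ends. The order Tsp86D, Tsp3A, Tsp26A was the same in both groups. In GFP+ cells the bounds of Tsp86D lie above those of the other TspanC8 genes, while in input cells Tsp86D and Tsp3A overlap.

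The RNA of their protease partner was lower in GFP+ cells. kuz, which encodes Kuzbanian, had 18.0 FPKM in GFP+ cells (14.4 to 21.7) and 61.1 FPKM in input cells (49.6 to 72.5), a 3.39-fold lower level. Of 10 genes of Notch cleavage and signalling, which all passed 1 FPKM, 0 were higher and 5 were lower, with a median log2 ratio of -0.84. The list also takes in N, Dl, Ser and Su(H), which encode no part of a protease, and Su(H) was not called. Of the remaining genes only kuz and Kul were lower. Among all genes at 1 FPKM or more, 7.98% were higher and 12.7% were lower. The related protease gene Kul was 2.56-fold lower, the receptor gene N 2.60-fold lower, and the ligand genes Dl and Ser were 2.64-fold and 2.17-fold lower. The gamma-secretase genes Psn, nct, aph-1 and pen-2 were not called, and Psn, its catalytic subunit, had 101 FPKM in GFP+ cells (79.9 to 123) and 86.4 FPKM in input cells (68.2 to 105). Without regard to transcript length, kuz was at 18.0 FPKM beside 40.2 FPKM of Tsp86D in GFP+ cells. In input cells 61.1 FPKM of kuz stood beside 36.7 FPKM of Tsp86D. These are RNA levels, and the balance of the proteins was not measured. N and kuz have long transcripts, and long transcripts had lower ratios over all genes: with the length trend described below removed, the median log2 ratio of the 9 genes of the list with an annotated length was -0.32, and the log2 ratios of the 5 genes called lower were -1.02 for kuz, -0.79 for Dl, -0.44 for Kul, -0.37 for Ser and -0.32 for N. Relative to the trend only kuz and Dl of these 5 were thus still past 1.5-fold.

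The 42E cluster holds 18 of the 35 members over 73.4 kb of arm 2R (dm6, 6992676 to 7066113). The genes Tsp42Ea, Tsp42Ee and Tsp42Ef at its near end were the 3 above 10 FPKM. From Tsp42Ej on, consecutive members of the plus strand had higher levels in the GFP+ group. Tsp42Ej (7040136 to 7042762), also called sunglasses and known for the breakdown of rhodopsin in the lysosomes of photoreceptors, had 9.98 FPKM in GFP+ cells (5.74 to 14.2) and 2.20 FPKM in input cells (0.52 to 3.88). This is a 4.54-fold higher level, with 1.48 to 27.1 as the extremes given by the bounds, on a mean of 176 normalised counts.

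The next members along the chromosome had the same direction, and none of them was called. Tsp42Ek had 1.14 FPKM in GFP+ cells (0 to 2.86) and 0.078 FPKM in input cells (0 to 0.37). Tsp42El had 2.73 FPKM in GFP+ cells (0.67 to 4.79) and 0.80 FPKM in input cells (0 to 1.74). lbm, known for its part in the formation of synapses by motor axons, had 3.98 FPKM in GFP+ cells (1.47 to 6.49) and 2.07 FPKM in input cells (0.41 to 3.72). Tsp42En had 0.39 FPKM in GFP+ cells (0 to 0.97) and was listed at 0 in input cells. Over these 5 genes, which span 14.3 kb, the levels summed to 18.2 FPKM in GFP+ cells and 5.15 FPKM in input cells, a 3.54-fold higher level, of which Tsp42Ej gives the larger part. The run of 5 was picked out after its values were seen, and is a description only. Mean normalised counts of 17.5 for Tsp42Ek, 46.9 for Tsp42El, 82.8 for lbm and 4.86 for Tsp42En stand behind it.

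Of the genes next to the run, the pseudogene CR12842, which directly precedes Tsp42Ej, had 4.82 FPKM in GFP+ cells and 4.20 FPKM in input cells. Tsp42Ep, which follows on the other strand, had 0.51 FPKM in GFP+ cells (0 to 1.57) and 1.61 FPKM in input cells (0.13 to 3.09). Tsp42Eo, nested in Tsp42Ep on the plus strand, had 0.25 FPKM in GFP+ cells (0 to 1.33) and 0.14 FPKM in input cells (0 to 0.58). Its mean normalised count was 0, so no direction can be read from it. Beyond it the glycosyltransferase gene Pgant3, within the cluster but no tetraspanin, had 21.6 FPKM in GFP+ cells and 25.5 FPKM in input cells.

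**Figure D2:**
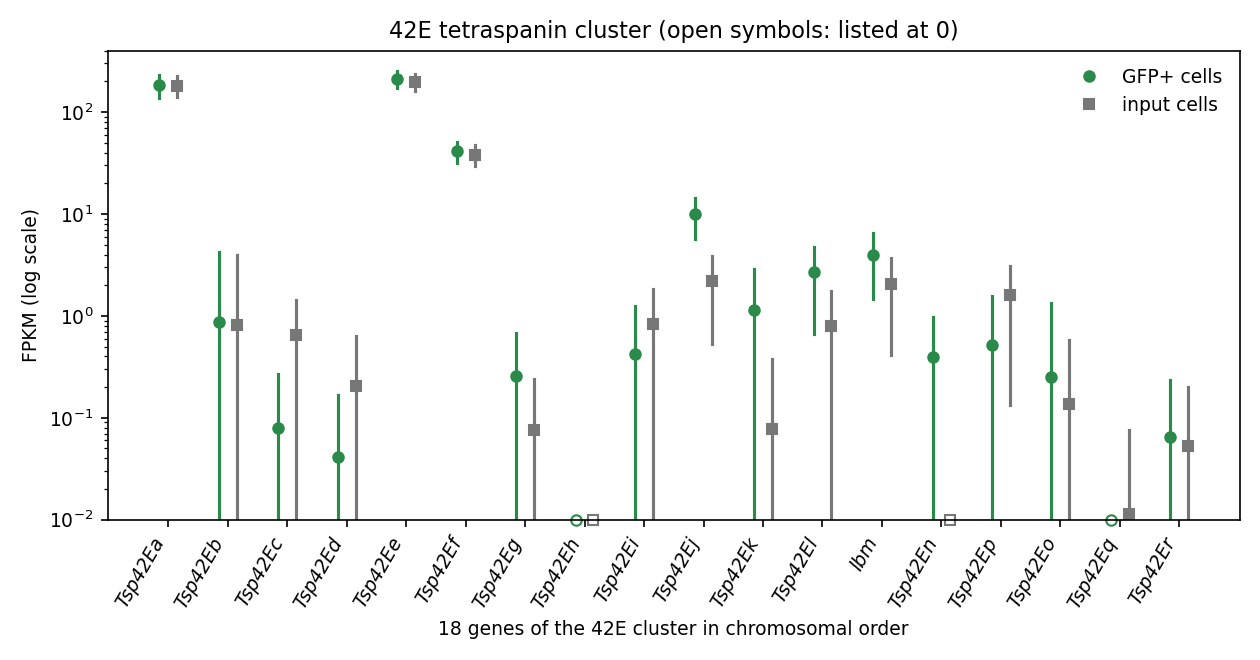
FPKM on a log scale of the 18 genes of the 42E cluster in chromosomal order, with GFP+ cells as circles left of input cells as squares, the deposited bounds as bars and open symbols for genes listed at 0. Tsp42Ea, Tsp42Ee and Tsp42Ef stand at 41.5 FPKM or more in GFP+ cells with near-equal input values, and the 5 genes from Tsp42Ej to Tsp42En have the circle above the square.

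Some of these genes overlap on the chromosome. Tsp42Ek starts within the last 107 bases of Tsp42Ej on the same strand, and both share 1 locus in the deposited table, so the split of reads between them is uncertain. Tsp42Eb and CG30159, which is no member, lie inside the span of Tsp42Ea on the same strand. CG30159 had 83.3 FPKM in GFP+ cells (54.7 to 112) and 70.4 FPKM in input cells (46.4 to 94.4). The split of reads between it and Tsp42Ea is thus uncertain too. Tsp42Eo lies inside the span of Tsp42Ep on the opposite strand. In all, 14 members, 6 of the 17 at 1 FPKM or more, share a deposited locus with another gene. The 6 are Tsp42Ea, Tsp66E, Tsp26A, Tsp42Ej, Tsp42Ek and Tsp42Ep.

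Markers of other cells moved with the group and stand beside Tsp42Ej. The fat body genes Lsp1beta, Lsp2, Fbp1 and Fbp2 summed to 25.6 FPKM in GFP+ cells and 0.23 FPKM in input cells, and Fbp1 was the 1 of the 4 that was called higher. Of 6 genes of neurons and sensory organs, 3 were lower (fne, scrt and pros), and elav and sens were not called. The synaptic vesicle gene nSyb was higher, with 13.7 FPKM in GFP+ cells and 2.29 FPKM in input cells. The 3 lower genes have long transcripts. With the length trend described below removed, the log2 ratios were -0.54 for fne, -0.60 for scrt and -0.40 for pros. They were then -0.71 for elav, 0.30 for sens and 2.66 for nSyb. All 6 myoblast genes were lower, and summed to 18.8 FPKM in GFP+ cells and 150 FPKM in input cells. The 6 hemocyte genes summed to 1.38 FPKM in GFP+ cells and 2.87 FPKM in input cells, and He and eater were listed at 0 in GFP+ cells. Of 4 glia genes 0 were higher and wrapper was lower, and of 3 trachea genes 0 were higher and trh and dys were lower. Of 4 tendon genes, sr, Tsp and Lrt were higher in GFP+ cells and slow was lower, and all 4 leg disc epithelium genes were lower but still at 32.5 FPKM or more in GFP+ cells. The part of these cells in the tetraspanin values was not tested.

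Outside 42E, 9 of 17 members passed 1 FPKM, and none of them was more than 1.5-fold higher in GFP+ cells. Besides those above, Tsp74F had 8.96 FPKM in GFP+ cells (5.31 to 12.6) and 11.9 FPKM in input cells (7.50 to 16.3). Tsp68C had 0.60 FPKM in GFP+ cells (0 to 1.32) and 1.30 FPKM in input cells (0.17 to 2.44), on a mean of 31.7 normalised counts. Both have overlapping bounds. By fold alone, without the bounds, 4 of the 17 members were more than 1.5-fold higher, all in 42E (Tsp42Ej, Tsp42Ek, Tsp42El and lbm), and 4 were more than 1.5-fold lower (Tsp96F, Tsp26A, Tsp68C and Tsp42Ep). Among all genes at 1 FPKM or more those shares are 19.5% higher and 22.0% lower. Tsp42Ek and Tsp42El reached 1 FPKM in GFP+ cells only, and Tsp68C and Tsp42Ep in input cells only. For these genes the filter itself favours a fold in the direction seen, so no pattern can be read from their folds. The order of the 17 members by level was nearly the same in both groups (Spearman's rho 0.97 across genes, given as a description, since the input holds GFP+ cells and both groups share gene lengths).

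The 18 members below 1 FPKM in both groups include 10 genes of the 42E cluster. The highest of the 18 was Tsp2A with 0.91 FPKM in GFP+ cells and 0.66 FPKM in input cells, with lower bounds of 0 in both. Tsp2A acts with Ssk, Mesh and Hoka in the smooth septate junctions of the gut, and all 3 of these partner genes were also below 1 FPKM in both groups. The pair at 29F, Tsp29Fa and Tsp29Fb, and Tsp42A were at 0.18 FPKM or less in GFP+ cells and lower still in input cells, with lower bounds of 0. The others are Tsp42Eb, Tsp42Ec, Tsp42Ed, Tsp42Eg, Tsp42Ei, Tsp42En, Tsp42Eo, Tsp42Eq, Tsp42Er, Tsp5D, Tsp33B and Tsp47F, and Tsp42Eh and Tsp66A, which were listed at 0 in both groups. Their mean normalised counts had a median of 2.01 and a maximum of 24.1, so no difference was detectable for them at this depth.

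Transcript length moved with the ratio. Over 8875 genes with an annotated length, short transcripts had higher ratios than long ones (Spearman's rho -0.43, across genes, which share libraries and are not replicates), and the lowess trend passed through a log2 ratio of 0.30 at 1000 bases and -0.30 at 3000 bases. The 17 members run from 976 to 2919 bases. The 8 of the 42E cluster are short, with a median of 1114.5 bases, and the 9 outside it are longer, with a median of 2094 bases. Tsp42Ej was 3.79-fold higher relative to the trend and Tsp96F had a ratio of 0.63, and both kept their calls. Tsp42Ee, Tsp42Ea and Tsp42Ef, slightly higher in GFP+ cells by the plain ratio, were slightly lower relative to the trend, at -0.07, -0.25 and -0.07 on the log2 scale.

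**Figure D3:**
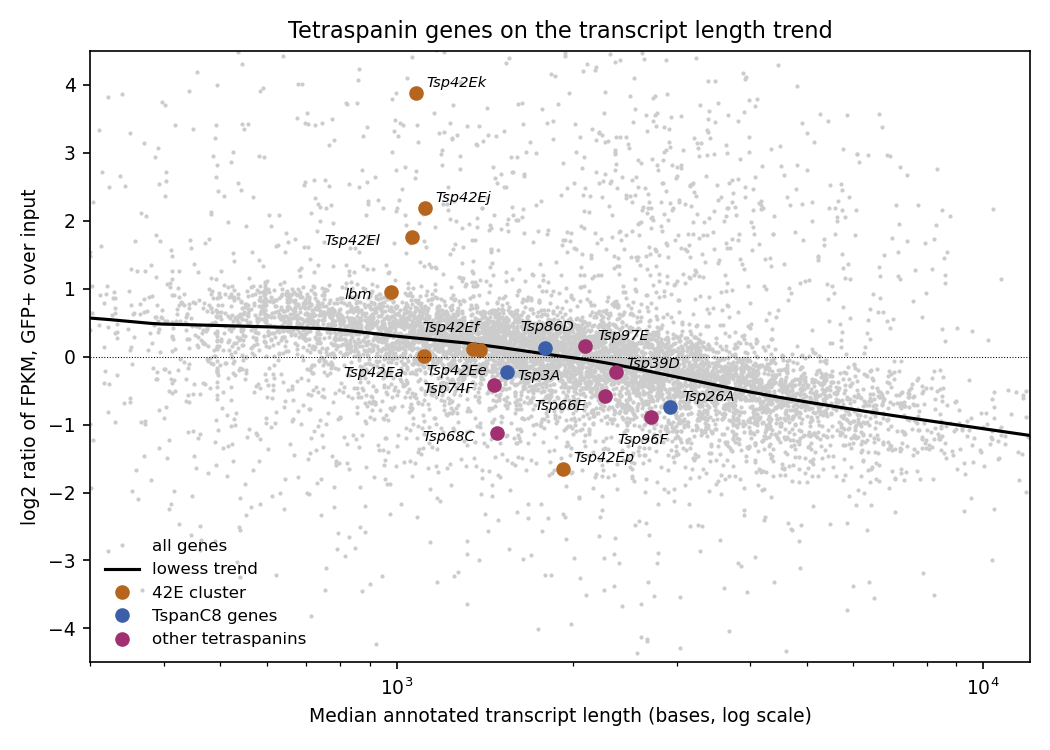
Log2 ratio of FPKM, GFP+ over input, against the median annotated transcript length on a log scale, for 8875 genes in grey, of which 355 lie outside the axes, with the lowess trend as a line and the 17 tetraspanins coloured by group. Tsp42Ek, Tsp42Ej, Tsp42El and lbm lie farthest above the trend, and Tsp42Ep and Tsp68C lie farthest below it. Tsp96F and Tsp26A lie below the trend near the right end of the members.

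Integrin subunits, which bind tetraspanins in many animals, were not called in either direction by the plain ratio, on which the calls of the lists rest. Of 7 genes 5 passed 1 FPKM, with 0 higher and 0 lower, beside 7.98% higher and 12.7% lower of all genes. Their median log2 ratio was -0.27 as measured. Relative to the length trend it was 0.69, but without scb, which has no annotated length, so these medians cover different genes. By gene, relative to the trend, mys moved from -0.27 to 0.27 and ItgaPS5 from -1.16 to -0.81. The alpha subunit gene mew went from 0.54 to 1.11 and if, another one, from 0.47 to 1.22. Relative to the trend mew and if were thus more than 1.5-fold higher, and ItgaPS5 was more than 1.5-fold lower. mys, the main beta subunit and the highest of the list, had 96.2 FPKM in GFP+ cells (78.2 to 114) and 116 FPKM in input cells (94.1 to 138). mew, an alpha subunit of the tendon side of muscle attachments, had 58.0 FPKM in GFP+ cells (46.8 to 69.1) and 39.8 FPKM in input cells (32.3 to 47.3), a 1.46-fold higher level under an overlap of the bounds by a small margin.

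Of 20 genes of vesicle sorting and release, the route by which tetraspanins leave the cell, 19 were measured under a name that could be matched, and all 19 passed 1 FPKM. The count was 2 higher and 1 lower, close to or below the 7.98% higher and 12.7% lower of all genes, with a median log2 ratio of 0.38, which is 0.27 relative to the length trend for those with a length. Stam, which sorts ubiquitinated cargo on endosomes, had 64.6 FPKM in GFP+ cells (52.3 to 76.9) and 32.9 FPKM in input cells (26.4 to 39.5). Vps28, of the complex that acts next, had 102 FPKM in GFP+ cells (80.6 to 123) and 54.2 FPKM in input cells (41.3 to 67.2). Sdc, the heparan sulfate proteoglycan Syndecan, had 73.9 FPKM in GFP+ cells (58.3 to 89.5) and 183 FPKM in input cells (145 to 222). Rab11, of the recycling endosome, was the highest of the list with 249 FPKM in GFP+ cells (202 to 295) and 255 FPKM in input cells (207 to 303). The plot of the partner lists shows that the sorting genes other than Sdc, Rab35 and Rab11 lie to the right of 0, most of them not called. Relative to the length trend some of these log2 ratios shrank (Vps37B from 0.43 to 0.14, Vps20 from 0.32 to -0.06). Others grew (Hrs from 0.38 to 0.59, ALiX from 0.36 to 0.63). Of the called genes, Vps28 went from 0.91 to 0.60, only just past 1.5-fold. Stam went from 0.97 to 1.23 and Sdc from -1.31 to -1.16.

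**Figure D4:**
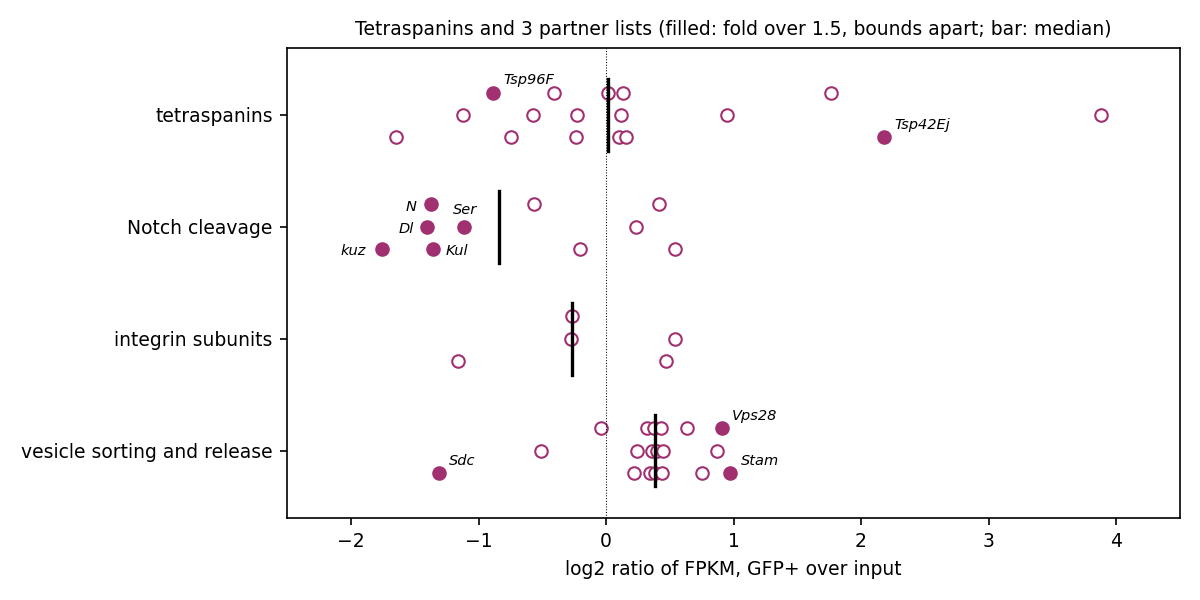
Log2 ratio of FPKM, GFP+ over input, for the 17 tetraspanins and for the genes at 1 FPKM or more of 3 partner lists. Each circle is a gene, filled where the fold passed 1.5 with bounds apart, and each bar is the median of a list. The bars are at 0.01 for the tetraspanins, -0.84 for Notch cleavage, -0.27 for integrin subunits and 0.38 for vesicle sorting and release. The Notch cleavage list also holds N, Dl, Ser and Su(H). The integrin median relative to the length trend, 0.69, leaves out scb, which has no annotated length.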

How the data were processed

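Libraries were primed with oligo-dT and read from 1 end; reads were trimmed (Trimmomatic 0.32) and placed on dm6 (Bowtie2 2.1.0) by the authors. The authors deposited FPKM with confidence bounds, 1 value per group, in the layout of Cufflinks 2.2.1. Their methods name DESeq2 for FPKM, and the level of the bounds and the annotation release are not given in the sources used here. The authors also deposited a DESeq2 1.2.8 table of GFP+ against input, from which only the mean normalised count over all 6 libraries (a signal value, 31652166 summed over genes) was used. Its columns of fold change, standard error, statistic, p-value and adjusted p-value hold the authors' own comparison and were left out, so no tested value is given. The depth of single libraries is not analysed here, and the bounds are the measure of error.

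Ratios were taken without a pseudocount. Calls needed 1 FPKM in the higher group, a fold over 1.5 and bounds apart. The trend with the median transcript length (Ensembl 115, same assembly) was fitted by lowess with a span of 0.3 (statsmodels 0.14.6, pandas 2.3.3, Python 3.11.15) and tested on simulated data. Every member at 1 FPKM or more was named with its values, and lists of partner and marker genes were matched by name or identifier. Members and lists were chosen with earlier results of these data known. Alternatives were no filter, a filter of 5 FPKM, a pseudocount of 1 FPKM, a fold of 2, no bounds, centring and removal of the length trend.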

Additional observations from a re-analysis of the deposited data

How the results depend on the processing

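Of the alternatives tried, Tsp42Ej was called higher in each, and Tsp96F lower in each but a fold of 2, which left 0 members lower. Without the bounds 4 members were higher and 4 lower, and with centring on genes above 10 FPKM in both groups 3 were lower (Tsp66E, Tsp96F and Tsp26A). The median log2 ratio of the members was 0.12 with no filter, -0.11 with a filter of 5 FPKM, -0.025 with centring and -0.12 with the length trend removed. For the 13 members with lower bounds above 0 in both groups, all 26 values under the pseudocount or the length correction stayed within the range set by the bounds. That range is wide even for the highest member (a ratio of 0.74 to 1.57 for Tsp42Ee), so this outcome says little. For the others that range is open or very wide, and Tsp42Ek had a log2 ratio of 0.99 with the pseudocount and 3.88 without it. Members below 10 FPKM have wide bounds. No paired analysis was possible because the deposited tables hold 1 value per group. For the same reason no replicate could be left out.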

Other observations

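TM4SF (transmembrane 4 superfamily), a tetraspanin by its name that the naming rule above does not take, had 11.4 FPKM in GFP+ cells (bounds 3.03 to 19.7) and 0.91 FPKM in input cells (0 to 2.53), a 12.5-fold higher level with bounds apart and a mean of 252 normalised counts. It was chosen after its values were seen. With it, the tetraspanins above 10 FPKM in GFP+ cells and those higher in GFP+ cells would each be 1 more.

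Tsp42Eo and Tsp29Fa had an FPKM above 0 in both groups and a mean normalised count of 0 over the 6 libraries. Over all genes, 582 of the 3738 genes with a mean normalised count of 0 had an FPKM above 0, and 317 of them reached 1 FPKM. The FPKM and the normalised counts thus assign some reads differently.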
